A study of Mus musculus with 15 samples.

Results

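The heat shock chaperone genes described here are Hspa1a, Hspa1b, Hsph1, Hspa8, Hsp90aa1, Hsp90ab1, Dnajb1, Hspb1, Hspd1 and Hspe1. They were chosen by gene name, and all 10 were found among the 56859 genes of the count table. All 10 also passed the filter on low counts, which left 18038 genes to test. The libraries were made from colon of C57BL/6J mice and belong to a study of colorectal cancer that arises on colitis. The mice are given as males aged 6 to 10 weeks in every group, so this is not taken as the age at sampling. The model pairs the carcinogen azoxymethane (AOM, injected into the peritoneum once, at 10 mg/kg, on day 0) with dextran sulfate sodium (DSS), an agent that injures the colonic epithelium, given as a 2.5% solution to drink on days 7 to 11, 28 to 32 and 49 to 53. The 15 libraries form 5 groups of 3. In the saline D27, saline D48 and saline D100 groups, saline was injected as a placebo on the DSS days, and the days in the names (27, 48 and 100) come from the sample descriptions. In the APX3330 group the same days carried 25 mg/kg APX3330 (E3330), which blocks the redox activity, as opposed to the DNA repair activity, of APE1/Ref-1. The Control group is labelled only as wild type, although the shared protocol gives AOM to every mouse, so its treatment is not settled here. The titles name D48 as cycle 1 and D100 as cycle 2, name no cycle for D27 and APX3330, and give no day for APX3330. Treatment and day therefore cannot be told apart when APX3330 is set against any saline group. If the named days are days of sampling, age and the DSS rounds received also differ between the saline groups. Neither can be told apart from day. Whether each library is a separate animal is not stated, so each p measures only the spread between these libraries.

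Molecular chaperones bind unfolded proteins and help them fold, refold or be degraded. In the cytosol, HSP70 proteins work in cycles with J proteins, which deliver clients, and with exchange factors of the HSP110 type, and they pass some clients to HSP90. In mitochondria the HSP60 chaperonin and its HSP10 lid fold imported proteins. Heat shock factor 1 (HSF1) raises many of these genes when proteins unfold, by binding heat shock elements, which are repeats of the unit NGAAN in alternating orientation. Some family members, such as Hspa8 and Hsp90ab1, are made at high levels without stress, while others, such as Hspa1a and Hspa1b, are kept low until induced. The colon epithelium is a tissue of fast renewal and heavy protein secretion, and colitis models expose it to injury and inflammation.

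Promoter sequences are shown for the HSP70 copies, for Hsph1, for the shared start of Hspe1 and Hspd1, and for Hspb1, which was not called in any comparison. Each holds a pair of heat shock units, and Dnajb1, whose windows hold none, is not shown. The sequences therefore do not stand for all members with large differences. They are RefSeq sequences of build GRCm38.p6, written 5′ to 3′ in the direction of the gene. Capitals mark pairs of heat shock units, searched as GAANNTTC and TTCNNGAA on both strands, each being its own reverse complement.
Hspa1a, 250 bases before the start, chr17:34972157-34972406, minus strand: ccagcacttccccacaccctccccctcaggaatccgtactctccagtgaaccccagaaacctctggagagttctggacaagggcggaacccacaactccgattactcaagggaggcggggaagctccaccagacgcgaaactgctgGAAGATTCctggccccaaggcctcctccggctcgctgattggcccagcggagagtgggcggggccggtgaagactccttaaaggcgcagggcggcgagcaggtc
Hspa1b, 250 bases before the start, chr17:34959239-34959488, minus strand: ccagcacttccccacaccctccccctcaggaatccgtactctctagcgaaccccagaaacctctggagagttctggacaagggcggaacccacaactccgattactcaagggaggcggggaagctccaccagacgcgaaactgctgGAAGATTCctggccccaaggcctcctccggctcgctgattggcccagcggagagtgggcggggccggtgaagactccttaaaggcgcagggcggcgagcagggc
Hspb1, 250 bases before the start, chr5:135887669-135887918, plus strand: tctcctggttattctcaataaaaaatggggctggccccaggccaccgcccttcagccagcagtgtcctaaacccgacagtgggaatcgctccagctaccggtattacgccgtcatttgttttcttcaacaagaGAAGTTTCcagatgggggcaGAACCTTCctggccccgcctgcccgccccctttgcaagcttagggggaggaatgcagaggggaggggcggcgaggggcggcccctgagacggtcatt
Hsph1, 30 bases just after the start, chr5:149636279-149636308, minus strand: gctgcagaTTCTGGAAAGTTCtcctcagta
Hspe1, 30 bases from the stretch before the start, chr1:55088051-55088080, plus strand: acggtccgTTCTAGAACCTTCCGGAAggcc

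Of the 10 members, 7 had a promoter window in the RefSeq table, reaching from 250 bases before to 50 bases after the start. Hspa8, Hsp90aa1 and Hsp90ab1 had none. A pair of units was present in 6 of the 7, and 17.0% of the 27025 genes with windows held one. In Hspa1a and Hspa1b the pair GAAGATTC lay 104 bases before the start. Hspb1 held GAAGTTTC at 117 and GAACCTTC at 97 bases before its start. No pair in either form was in the Dnajb1 windows. A run of 3 units, in which a pair of one form overlaps a pair of the other, was in the windows of 3 members and of 0.662% of all genes. Hsph1 also held the pair TTCTCGAA before its start. In Hsph1 the run TTCTGGAAAGTTC began 15 or 36 bases after the start, depending on which of its RefSeq starts is used. Hspe1, for the mitochondrial HSP10 lid, and Hspd1, for HSP60, share their run: the genes lie head to head on chromosome 1, and the stretch printed for Hspe1 also lies before an Hspd1 start on the other strand. The window of the other Hspd1 start in the RefSeq table held no pair and no run. These matches describe letters in a window and do not show binding.

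The genes lie on 6 chromosomes (GENCODE M21, GRCm38). Hspa1a (ENSMUSG00000091971.3, chromosome 17, 34969190 to 34972156, minus strand) and Hspa1b (ENSMUSG00000090877.3, chromosome 17, 34956436 to 34959238, minus strand) are single-exon neighbours that encode the inducible HSP70. Hsp90ab1 (chromosome 17, 45567775 to 45573271, minus strand) and Hsp90aa1 (chromosome 12, 110690605 to 110702728, minus strand) encode the cytosolic HSP90 forms. Hspa8 (chromosome 9, 40800984 to 40810087, plus strand) encodes the constitutive HSP70, also called HSC70. Hsph1 (chromosome 5, 149614287 to 149636376, minus strand) encodes an HSP110 exchange factor of HSP70. Dnajb1 (chromosome 8, 83608193 to 83612653, plus strand) encodes an HSP40 J protein that works with HSP70. Hspb1 (chromosome 5, 135887919 to 135889563, plus strand) encodes the small heat shock protein HSP25, which holds unfolded proteins without ATP. Hspd1 (chromosome 1, 55077835 to 55088243, minus strand) and Hspe1 (chromosome 1, 55088132 to 55091307, plus strand) overlap over 112 bases. Whether the authors' counting used strand is not given in the sources used here, so reads from that overlap, and from the 2225 bases of Hspa1a that the opposite-strand gene Gm20481 overlaps, cannot be assigned with certainty. Hspa8 also holds 3 small nucleolar RNA genes on its own strand.

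Total counts per library ranged from 13548661 to 17919613. The epithelial markers had counts in every group, and smooth muscle markers summed to 10067 to 10350 CPM (counts scaled to library size) in Control and to 4337 to 9803 CPM elsewhere. Goblet cell markers summed to 9824 to 10794 CPM in Control and to 26776 to 82402 CPM elsewhere, and of 6 T cell markers 6, 6, 4 and 3 were higher than in Control in the D27, D48, D100 and APX3330 groups. In the same order 5, 6, 3 and 2 of 6 plasma and B cell markers and 4, 6, 4 and 2 of 7 myeloid markers were higher, 1 myeloid marker was lower with APX3330, and 5, 1, 5 and 5 of 6 fibroblast markers were lower (1 was higher at D48). Of 7 adipocyte markers 3 were higher at D27, and 1, 1 and 2 were lower in the other groups. The part of these shifts in the results on the members was not tested. Some libraries stood apart in transcripts of other tissues. Squamous epithelium markers summed to 940 and 440 CPM in Control replicates 1 and 3 and to 865 CPM in saline D100 replicate 1, against at most 103 CPM elsewhere, and the same Control libraries held 1904 and 853 CPM of skeletal muscle markers. Pancreatic acinar markers summed to 36940 and 8860 CPM in saline D48 replicates 2 and 3 and to at most 10.6 CPM elsewhere. The results below are given with and without these libraries. Leaving them out leaves 1 library in Control or in D48, which is then assumed to vary like the other groups. Without the libraries holding squamous transcripts, a smaller share of all genes was called in every comparison. A call lost in that fit is therefore no result about the members alone. In bulk tissue, fewer cells of a type and less RNA per cell cannot be told apart.

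Together the 10 members took 0.321% ± 0.00847 of a Control library's counts (mean and SD of 3 libraries, as in all later means). In the saline groups the share was 0.353% ± 0.0637 (D27), 0.481% ± 0.0498 (D48) and 0.541% ± 0.0292 (D100), and in the APX3330 group 0.426% ± 0.0813. The D48, D100 and APX3330 libraries all lay above the Control libraries, the lowest APX3330 library (0.334%) close to the highest Control library (0.330%), and the D27 libraries overlapped Control. Over the 5 groups, 9 of the 10 members were called by edgeR's quasi-likelihood F test (adjusted p below 0.05), beside 37.3% of all genes tested. The exception was Hspb1 (edgeR adjusted p = 0.200). Without the libraries holding squamous transcripts, 4 members were called, beside 15.8% of all genes tested in that fit.

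**Figure D1:**
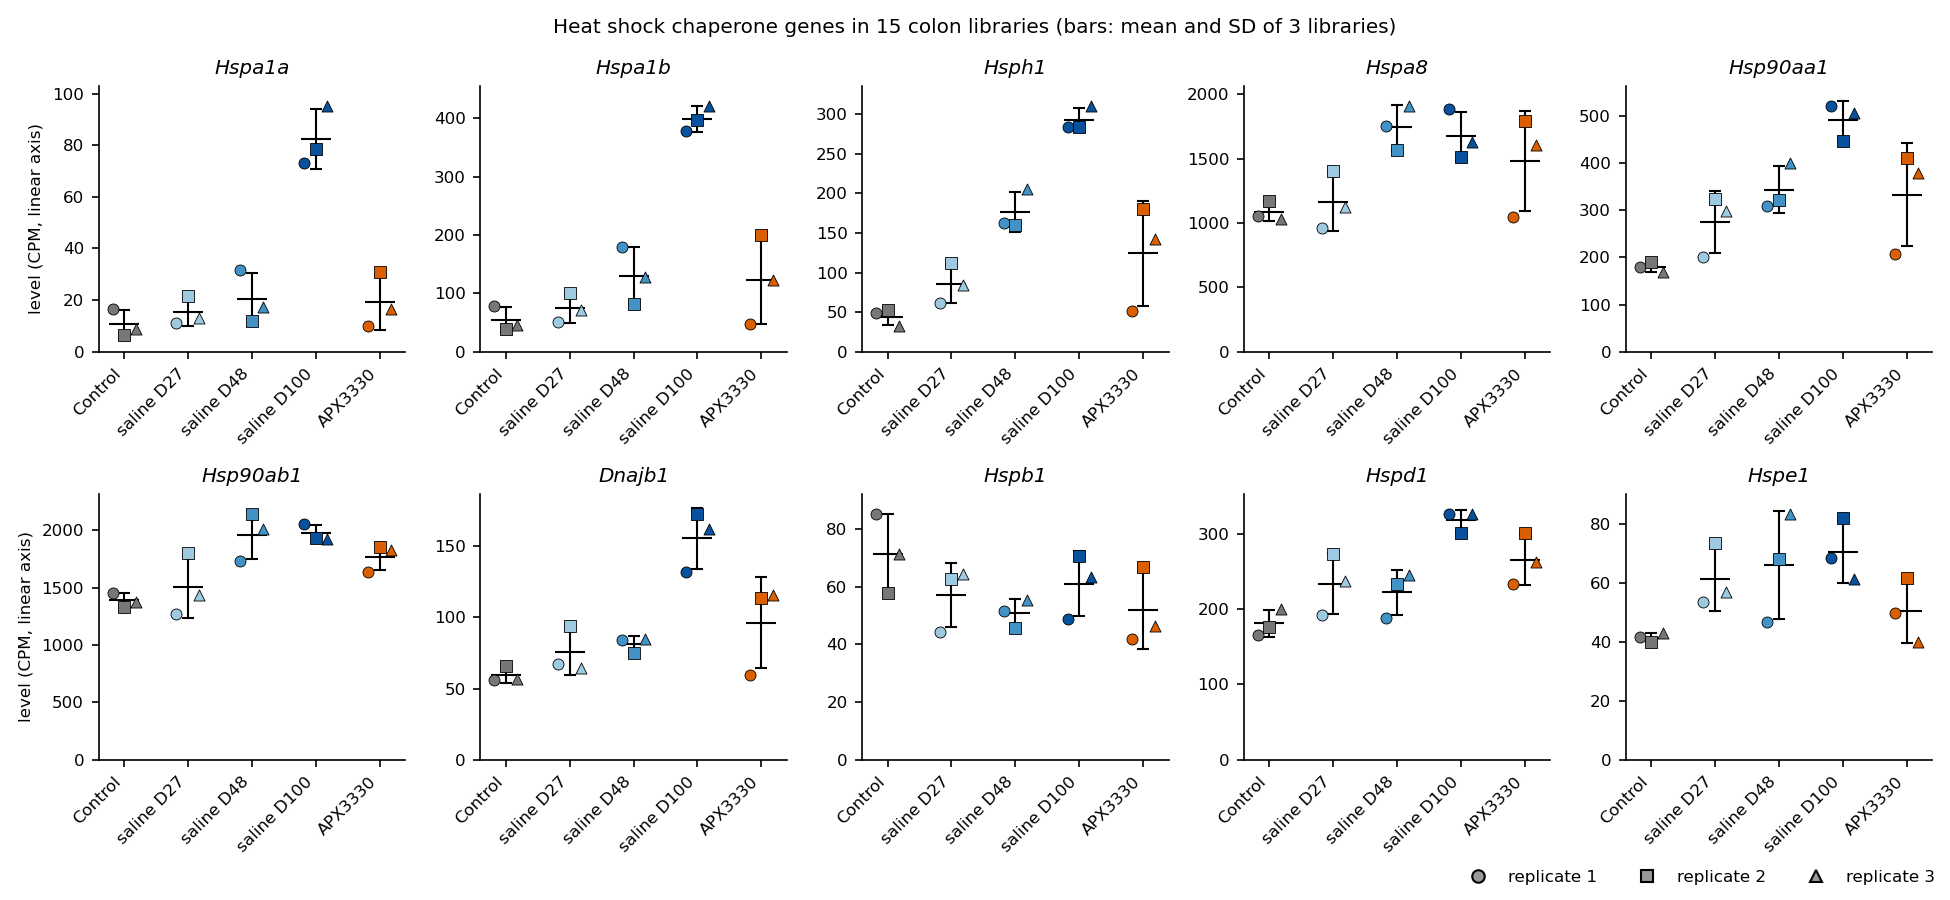
Level of each chaperone gene in the 15 libraries, in CPM on linear axes that start at 0; symbols mark replicates 1 to 3 of each group, and bars give the mean and SD of 3 libraries. The D100 libraries lie above all others for Hspa1a, Hspa1b, Hsph1, Hsp90aa1, Dnajb1 and Hspd1, and APX3330 replicate 1 lies far below replicates 2 and 3 for Hspa1b and Hsph1. The share of all genes tested whose D100 libraries lie above all others was not worked out.

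Levels can be compared between genes only per length, as CPM per kilobase of annotated exon. On that scale Control colon had the order Hsp90ab1 (463 ± 20.7), Hspa8 (253 ± 17.5), Hspb1 (69.4 ± 13.4), Hspd1 (68.5 ± 6.70), Hsp90aa1 (45.7 ± 2.74), Hspe1 (28.1 ± 1.04), Hspa1b (19.5 ± 7.63), Dnajb1 (18.6 ± 1.72), Hsph1 (6.11 ± 1.46) and Hspa1a (3.63 ± 1.78). Libraries overlapped between Hspb1 and Hspd1, between Hspe1 and Hspa1b, between Hspa1b and Dnajb1, and between Hsph1 and Hspa1a. At D100 Hsp90ab1 (658 ± 24.5) and Hspa8 (389 ± 44.3) were still the highest. Hspa1b came next at 142 ± 7.72, with no library overlapping those of Hsp90aa1 (125 ± 9.93). Hsp90aa1 and Hspd1 (120 ± 5.41) overlapped, as did the neighbours among Hspb1 (59.2 ± 11.0), Dnajb1 (48.6 ± 6.67), Hspe1 (47.9 ± 7.13) and Hsph1 (40.3 ± 2.14). Hspa1a was lowest at 27.8 ± 3.90. The value of each HSP70 copy depends on how reads were split between them.

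The inducible HSP70 genes and the HSP110 gene Hsph1 had the largest differences. Like the J protein gene Dnajb1, they were lowest on average in Control and highest at D100, with D27, D48 and APX3330 between. In the 3 D100 libraries Hspa1b stood at 379, 397 and 422 CPM, against 79.1, 39.4 and 45.6 CPM in Control. At D27 it stood at 51.6, 101 and 71.1 CPM, at D48 at 180, 82.2 and 129 CPM, and with APX3330 at 47.6, 200 and 122 CPM. All D100 libraries lay above every other library, all D48 libraries lay above Control, and the D27 and APX3330 groups overlapped Control. For this gene and those below, the share of all genes tested with D100 libraries so placed was not worked out.

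Hspa1a had the same order at a lower level. It was at 16.7, 6.65 and 8.92 CPM in Control and at 73.1, 78.6 and 95.3 CPM at D100. The D27 libraries had 11.3, 21.6 and 13.02 CPM, the D48 libraries 31.8, 11.7 and 17.2 CPM, and the APX3330 libraries 9.80, 30.8 and 16.7 CPM. Only the D100 libraries were separate from those of Control, and they were separate from every other library as well.

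The copies are close in sequence, which limits what each row can say. Over 2701 aligned bases of their transcripts (2967 bases for Hspa1a and 2803 for Hspa1b) 93.6% were identical, and 58.8% of the 50-base windows of Hspa1a also occur in Hspa1b. Their promoter windows differ at 4 of 300 positions, counted from 1 at the 5′ end with the Hspa1a base first: C44T, T47C, T249G and C276T. The first 3 of these lie in the stretches printed above, and none falls in the pair of heat shock units. Hspa1b had between 4.43 and 7.48 counts for each Hspa1a count in the 15 libraries, and the highest ratios were those of replicates 2 and 3 of D48 (7.01 and 7.48) and of APX3330 (6.50 and 7.33). The D100 ratios were 5.18, 5.05 and 4.43, the last being the lowest of all libraries. With the copies summed into 1 row, the log2 fold change against Control was 2.88 ± 0.430 at D100 (SE, edgeR adjusted p = 0.000282) and 1.20 ± 0.409 at D48 (adjusted p = 0.0398). The sum was not called at D27 (0.46 ± 0.406, adjusted p = 0.473) or with APX3330 (1.12 ± 0.409, adjusted p = 0.0764).

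**Figure D2:**
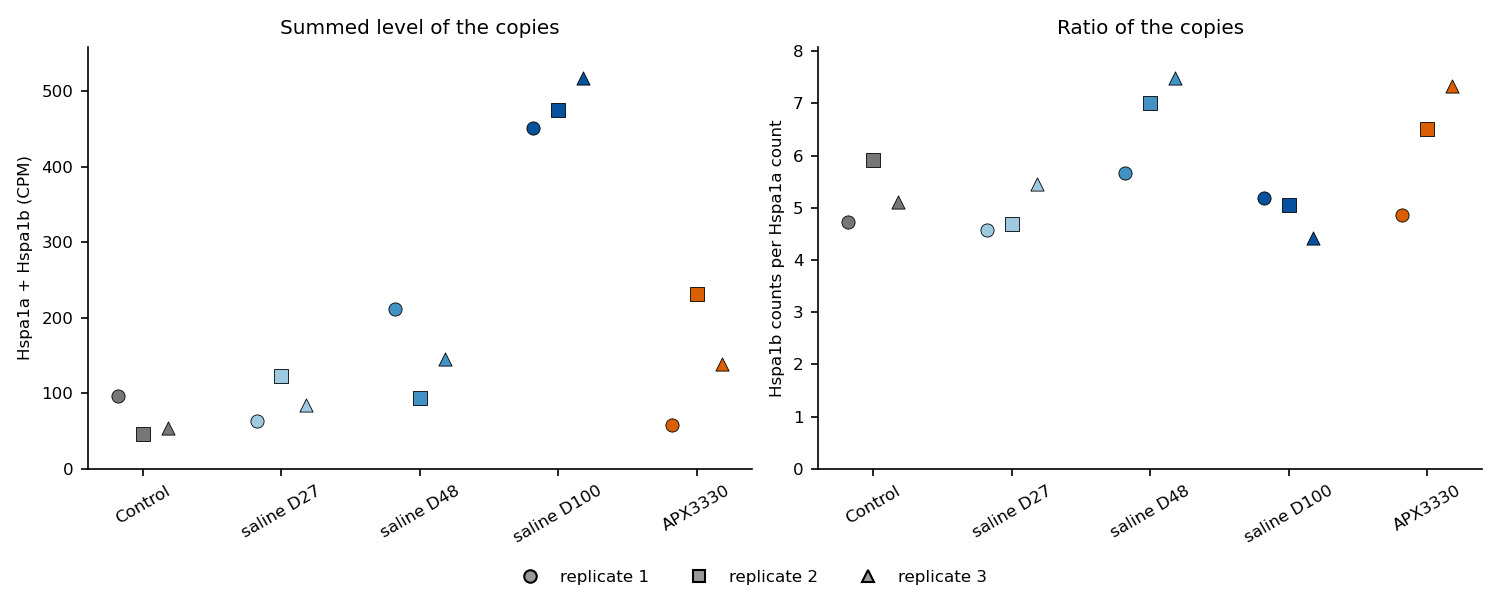
Summed level of Hspa1a and Hspa1b in CPM (left) and Hspa1b counts per Hspa1a count (right) in each library, by group, with both axes linear from 0. The summed level at D100 (452 to 517 CPM) lies above every other library, while the ratio stays between 4.43 and 7.48.

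Hsph1, which releases ADP from HSP70 and so lets it let go of its client, stood at 48.2, 52.5 and 32.4 CPM in Control. It was at 61.7, 112 and 84.5 CPM at D27, at 162, 161 and 205 CPM at D48 and at 284, 283 and 311 CPM at D100. In the APX3330 libraries it was at 50.8, 180 and 142 CPM. The Control, D27, D48 and D100 groups did not overlap, in that order from low to high, and APX3330 replicate 1 lay within the Control range.

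Dnajb1 was at 55.8, 65.9 and 57.0 CPM in Control, at 67.5, 94.2 and 64.8 CPM at D27 and at 84.1, 74.7 and 84.5 CPM at D48. It reached 132, 173 and 162 CPM at D100, and stood at 59.3, 114 and 116 CPM with APX3330. D100 was above all other libraries, and replicate 1 of APX3330 again lay within the Control range.

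For Hsp90aa1, the stress-inducible HSP90 form, Control stood at 180, 190 and 169 CPM and D27 at 199.8, 324 and 299 CPM. D48 had 308, 322 and 401 CPM, D100 had 521, 447 and 505 CPM, and APX3330 had 208, 411 and 379 CPM. Control lay below all other groups and D100 above all of them.

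The constitutive forms moved less. Hspa8 ranged from 1034 to 1175 CPM in Control, 962 to 1404 at D27, 1566 to 1913 at D48, 1511 to 1883 at D100 and 1050 to 1797 with APX3330. Hsp90ab1 ranged from 1332 to 1455 CPM in Control, 1275 to 1803 at D27, 1734 to 2146 at D48, 1928 to 2059 at D100 and 1635 to 1852 with APX3330. For both genes the D48 and D100 groups lay above Control and overlapped each other.

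Of the mitochondrial chaperonin genes, Hspd1 ranged from 166 to 201 CPM in Control, 192 to 273 at D27, 189 to 245 at D48, 301 to 327 at D100 and 233 to 300.5 with APX3330. Its partner Hspe1 ranged from 39.9 to 42.9 CPM in Control, 53.5 to 73.4 at D27, 46.8 to 83.5 at D48, 61.2 to 81.9 at D100 and 39.9 to 61.6 with APX3330. Hspd1 at D100 lay above every other library, while Hspe1 at D100 overlapped the D27, D48 and APX3330 groups. Hspb1 ranged from 57.8 to 85.4 CPM in Control, 44.3 to 64.4 at D27, 45.7 to 55.6 at D48, 48.7 to 70.9 at D100 and 42.0 to 67.1 with APX3330. It was the 1 member whose mean was lower than in Control in every other group, and its D48 libraries lay below those of Control.

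Against Control, the saline groups ask how the members stood on each named day of the model. At D27 no member was called higher or lower by edgeR, although 10.2% of all genes tested were called higher and 9.36% lower. At an unadjusted p below 0.05, 4 members were higher: Hsph1 (log2 fold change 0.95 ± 0.329, SE), Hspe1 (0.56 ± 0.193), Hsp90aa1 (0.61 ± 0.212) and Hspd1 (0.37 ± 0.136). Their edgeR adjusted p lay between 0.0524 and 0.0688, close to the threshold. DESeq2 called 3 members higher. Without saline D27 replicate 1, in which these genes were the lowest of the group, edgeR called 3. Hsph1 was also called without APX3330 replicate 1 or 2, Hsp90aa1 without APX3330 replicate 1, and Hspe1 without replicate 1 or 3 of D48 or 2 or 3 of APX3330.

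At D48, 6 of the 10 members were higher than in Control and none lower, beside 14.3% of all genes called higher and 13% lower. Hsph1 was 3.96-fold higher (log2 1.99 ± 0.336, edgeR adjusted p = 0.000603), Hspa1b 2.38-fold (1.25 ± 0.410, adjusted p = 0.0333) and Hsp90aa1 1.91-fold (0.93 ± 0.213, adjusted p = 0.00454). Hspa8 (0.68 ± 0.174), Hspe1 (0.67 ± 0.193) and Hsp90ab1 (0.50 ± 0.119) also rose. Dnajb1 (0.45 ± 0.205), Hspd1 (0.30 ± 0.136), Hspa1a (0.90 ± 0.426) and Hspb1 (-0.49 ± 0.194) were not called. Without D48 replicates 2 and 3, which hold the pancreatic transcripts, 2 members were called, Hspa1b and Hsph1. The 6 calls, that of Hsph1 included, were not kept without the libraries holding squamous transcripts, where Hsph1 stood at log2 1.73. That fit has 1 Control library, and fewer of all genes were called in it. Hspa1b lost its call without Control replicate 2 or 3 or D48 replicate 1 or 3 (adjusted p from 0.0684 to 0.140), and Hspe1 without Control replicate 2 or D48 replicate 3 (0.0517 and 0.103). Dnajb1 gained a call without APX3330 replicate 1 (adjusted p = 0.0254), and Hspb1 was called lower without Control replicate 2 or APX3330 replicate 2 (0.0421 and 0.0495).

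At D100, 9 of the 10 members were higher than in Control and none lower, beside 11.4% of all genes called higher and 10.5% lower. Hspa1a was 7.62-fold higher (log2 2.93 ± 0.437, edgeR adjusted p = 0.000280), Hspa1b 7.29-fold (2.87 ± 0.429, adjusted p = 0.000286) and Hsph1 6.60-fold (2.72 ± 0.344, adjusted p = 7.31e-05). Hsp90aa1 was 2.73-fold higher (1.45 ± 0.215) and Dnajb1 2.62-fold (1.39 ± 0.207). The rises of Hspd1 (0.81 ± 0.136), Hspe1 (0.77 ± 0.193), Hspa8 (0.62 ± 0.174) and Hsp90ab1 (0.51 ± 0.119) were smaller, and Hspb1 stood at -0.23 ± 0.194. The calls of Hspa1a, Hspa1b, Hsph1 and Dnajb1 held in every alternative run, with log2 fold changes of at least 2.68, 2.68, 2.49 and 1.31. In the fit without the libraries holding squamous transcripts, which called 2.43% of all genes higher, the other 5 lost their calls (edgeR adjusted p from 0.0591 for Hspd1 to 0.465 for Hspa8). Their log2 fold changes there were 1.31 (Hsp90aa1), 0.81 (Hspd1), 0.83 (Hspe1), 0.52 (Hsp90ab1) and 0.40 (Hspa8). Hspa8 also lost its call without Control replicate 1 or 3 or D100 replicate 1 (adjusted p from 0.0656 to 0.0710), and Hspe1 without D100 replicate 2 (0.0534).

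**Figure D3:**
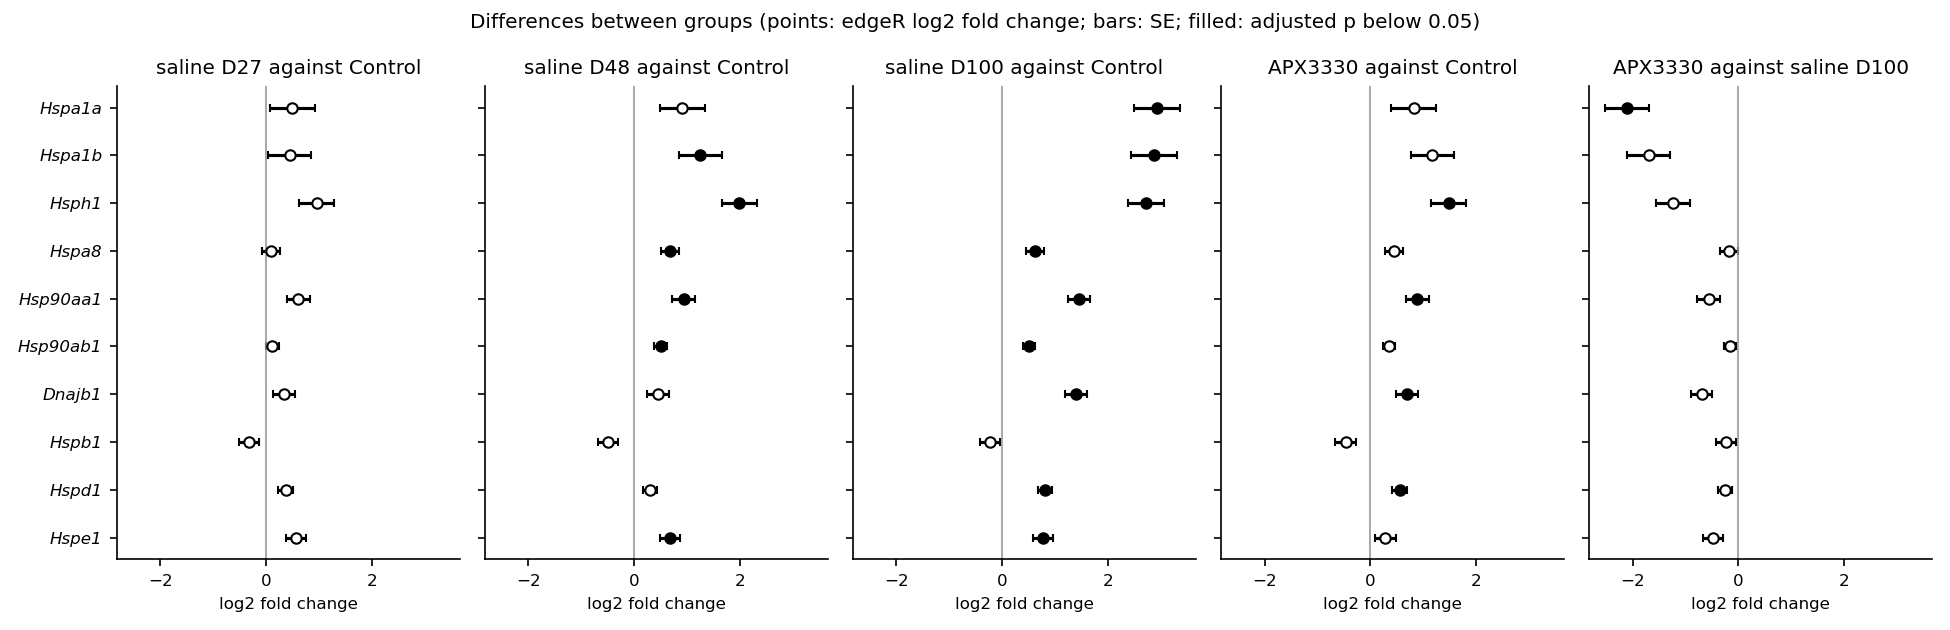
Log2 fold change of each chaperone gene in 5 comparisons of the 15-library edgeR fit; points are estimates, bars SE, and filled points have an adjusted p below 0.05. The number of filled points against Control goes from 0 at D27 to 6 at D48 and 9 at D100, with 4 for APX3330, and 1 (Hspa1a) between APX3330 and D100. Of all genes tested 10.2% (D27), 14.3% (D48), 11.4% (D100) and 7.16% (APX3330) were called higher than in Control. Between APX3330 and D100, 0.2% were called lower with APX3330.

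The saline groups were also set against each other. D48 against D27 gave no called member, beside 0.854% of all genes higher and 0.499% lower. Hsph1 was at 1.03 ± 0.325 there (edgeR adjusted p = 0.132) and Hspa8 at 0.58 ± 0.174 (adjusted p = 0.111), and both were called without APX3330 replicate 1, which enters the shared estimate of the spread (adjusted p of 0.0215 and 0.0425). DESeq2 called 2 members higher, Hspa8 and Hsp90ab1.

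From D27 to D100, 5 members were higher and none lower, beside 1.63% of all genes higher and 1.45% lower. Hspa1a was 5.40-fold higher (log2 2.43 ± 0.424, edgeR adjusted p = 0.0115), Hspa1b 5.35-fold (2.42 ± 0.420, adjusted p = 0.0115), Hsph1 3.41-fold (1.77 ± 0.330, adjusted p = 0.0156) and Dnajb1 2.06-fold (1.05 ± 0.204, adjusted p = 0.0178). Hsp90aa1 was 1.79-fold higher at an adjusted p of 0.0434 and lost its call in 12 of the 15 fits that left out 1 library. All 5 calls were lost without D27 replicate 1 or D100 replicate 3, with adjusted p of at least 0.0554 for each. Without D100 replicate 2, 3 remained called, and without the libraries holding squamous transcripts 2, Hspa1a and Hspa1b. Hspa8 gained a call without APX3330 replicate 1 (adjusted p = 0.0442) and Hsp90ab1 without D27 replicate 2 (0.0454).

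From D48 to D100, 4 members were higher and none lower, beside 7.2% of all genes higher and 6.4% lower. Hspa1a was 4.07-fold higher (log2 2.02 ± 0.416, edgeR adjusted p = 0.00589), Hspa1b 3.06-fold (1.61 ± 0.408, adjusted p = 0.0168), Dnajb1 1.92-fold (0.94 ± 0.204, adjusted p = 0.00754) and Hspd1 1.43-fold (0.52 ± 0.136, adjusted p = 0.0209). Hspa8 and Hsp90ab1 stood at -0.060 ± 0.173 and 0.0076 ± 0.118. Without D48 replicates 2 and 3 only Hspd1 was called, and Hspa1a stood at 1.37 (adjusted p = 0.186). Without D100 replicate 3, 2 members were called. Hspa1b also lost its call without D48 replicate 2 or 3 (edgeR adjusted p of 0.0633 and 0.0535), and Hspd1 without D48 replicate 1 or D100 replicate 1 (0.0795 and 0.0600) or without the libraries holding squamous transcripts (0.0816). Hsph1 and Hsp90aa1 gained calls without APX3330 replicate 1 (0.0247 and 0.0363).

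APX3330 against Control asks which members differed in the treated animals of the model. 4 members were higher and none lower, beside 7.16% of all genes higher and 8.18% lower. Hsph1 was 2.80-fold higher (log2 1.48 ± 0.332, edgeR adjusted p = 0.00780), Hsp90aa1 1.85-fold (0.89 ± 0.213, adjusted p = 0.0115), Dnajb1 1.62-fold (0.69 ± 0.205, adjusted p = 0.0328) and Hspd1 1.47-fold (0.55 ± 0.136, adjusted p = 0.0134). Hspa1b (1.17 ± 0.409), Hspa1a (0.82 ± 0.427), Hspa8 (0.45 ± 0.173) and Hsp90ab1 (0.35 ± 0.119) were not called. Without APX3330 replicate 2 Hsph1 was the 1 member called higher and Hspb1 was called lower (-0.69, edgeR adjusted p = 0.0405). Without Control replicate 1 Hsph1 and Hsp90aa1 were called. The calls of Hsph1, Hsp90aa1, Dnajb1 and Hspd1 were not kept without the libraries holding squamous transcripts. That fit has 1 Control library, and fewer of all genes were called in it. Dnajb1 lost its call without Control replicate 3 or APX3330 replicate 3 as well. Leaving out APX3330 replicate 1 added Hspa1b (1.56, adjusted p = 0.00919) and Hspa8 (0.65, adjusted p = 0.0113) to the calls, and Hsp90ab1 was called without D27 replicate 1 or 2 (0.0432 and 0.0258).

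Within the APX3330 group, replicate 1 differed from the others in most members. Its level divided by the mean of replicates 2 and 3 was 0.295 for Hspa1b, 0.316 for Hsph1 and 0.413 for Hspa1a. The quotient was 0.517 for Dnajb1, 0.526 for Hsp90aa1, 0.617 for Hspa8, 0.741 for Hspb1, 0.827 for Hspd1, 0.888 for Hsp90ab1 and 0.981 for Hspe1. The inducible cytosolic members were far lower in replicate 1, while Hspe1 was near the mean of the other libraries. Immediate early genes, which respond within minutes to stimuli, summed to 465 CPM in this library, against 734 CPM in each of the others of the group. In the other groups they summed to 998 to 1223 CPM (Control), 906 to 937 (D27), 822 to 1228 (D48) and 755 to 905 (D100). Between Control and D100 they thus went the other way from the summed members. The part of the immediate early genes in the result was not tested.

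Between APX3330 and the saline groups, calls were few. Against D27 no member was called, beside 4.71% of all genes higher and 4.37% lower, with log2 fold changes from -0.28 (Hspe1) to 0.73 (Hspa1b). Without APX3330 replicate 1, 3 members were called higher, Hsph1 (0.90, edgeR adjusted p = 0.0227), Hspa8 (0.55, adjusted p = 0.0320) and Dnajb1 (0.61, adjusted p = 0.0247). Against D48 no member was called, beside 9.41% of all genes higher and 10.3% lower, with values from -0.50 (Hsph1) to 0.26 (Hspd1). In that comparison Dnajb1 was called higher without APX3330 replicate 1 (0.50, adjusted p = 0.0351), and Hspe1 lower without D48 replicate 1 (-0.57, adjusted p = 0.0385). At an unadjusted p below 0.05 no member differed in either comparison.

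Against D100, Hspa1a was the 1 member called, lower with APX3330, beside 0.305% of all genes higher and 0.2% lower. Its log2 fold change was -2.11 ± 0.418 (edgeR adjusted p = 0.0420). The values of all 10 members, and of 50.8% of all genes tested, were below 0, with Hspa1b at -1.69 ± 0.409 (adjusted p = 0.0777), Hsph1 at -1.24 ± 0.325 (adjusted p = 0.1003) and Dnajb1 at -0.69 ± 0.203 (adjusted p = 0.142). The APX3330 libraries all lay below the D100 libraries for 7 members (these 4 genes, Hsp90aa1, Hsp90ab1 and Hspd1), as they did for 8.78% of all genes tested. The call of Hspa1a was lost in 9 of the 15 fits that left out 1 library, including each of the 6 APX3330 and D100 libraries (adjusted p up to 0.147). It was lost with the copies summed too (-1.76 ± 0.411, adjusted p = 0.0691). DESeq2 called Hspa1a, Hspa1b and Dnajb1 lower. The comparisons with Control and with D100 share the APX3330 libraries, and the day of the APX3330 samples is not given.

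Among the regulators, Hsf1 rose in all 3 saline groups against Control (log2 0.33, 0.41 and 0.31 at D27, D48 and D100, edgeR adjusted p of 0.0406, 0.00997 and 0.0481) and was at 0.30 with APX3330 (adjusted p = 0.0716). Hsf2 and Hsf4 were not called in these comparisons. None of the 3 Hsf1 calls held without D48 replicates 2 and 3 or without the libraries holding squamous transcripts. With single libraries left out, the call was lost in 7 of 15 fits at D27 and in 11 of 15 at D100, those without any of the Control libraries included, and in none at D48. On a list of 13 other HSF1 targets, 8 rose and 2 fell at D100, against 4 and 1 at D27 (2 higher without D27 replicate 2, 0 lower without Control or D27 replicate 1) and 6 and 1 at D48. With APX3330 5 rose and 2 fell, and with single libraries left out 2 to 8 rose and 1 to 2 fell. Of all genes tested 10.2% rose and 9.36% fell at D27, 14.3% and 13% at D48. The shares were 11.4% and 10.5% at D100, and 7.16% and 8.18% with APX3330. The lists in this and the following paragraphs share some genes. The list's median log2 fold change was 0.72 at D100, where that of all genes was 0.0045. Dnaja1, a J protein gene, rose by 1.52 ± 0.191 at D100 and Chordc1, for an HSP90 co-chaperone, by 1.28 ± 0.172. Serpinh1, for the collagen chaperone HSP47, rose at D48 (0.80 ± 0.114) and fell at D100 (-0.44 ± 0.114). Hspb8, the other target that fell at D100, is a small heat shock protein gene. Of these targets 2 rose and 1 fell at D100 without the libraries holding squamous transcripts, and 1 fell without Control replicate 2 or D100 replicate 3.

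Partners of HSP70 and HSP90 were mixed. Of 17 other J protein genes 3 rose and 3 fell at D27, 4 and 4 at D48, 8 and 2 at D100 (5 rose without Control replicate 2 or 3), and 5 and 2 with APX3330 (1 fell without Control replicate 1 or 3 or APX3330 replicate 3). Of all genes tested 10.2% rose and 9.36% fell at D27, 14.3% and 13% at D48, 11.4% and 10.5% at D100, and 7.16% and 8.18% with APX3330. Bag3, an HSP70 exchange factor that directs clients to autophagy, rose at D100 (0.72 ± 0.173) and stood at 0.03 ± 0.173 at D27. Of 8 exchange factors and partners 2, 1, 3 and 2 rose in the D27, D48, D100 and APX3330 groups. Sil1, an exchange factor of BiP in the endoplasmic reticulum, rose in all 4 (0.87, 0.62, 0.89 and 0.62, each ± 0.134). Bag2, a cofactor that inhibits the HSP70 ubiquitin ligase CHIP, fell at D48 (-0.48 ± 0.144) and with APX3330 (-0.53 ± 0.144), and no other gene of the 8 fell. The fall of Bag2 was lost at D48 without Control replicate 1 or D48 replicate 1 or 2, and for APX3330 without Control replicate 1 or APX3330 replicate 2 or 3. The count that rose was 1 at D27 without Control or D27 replicate 1 or 2, 2 at D48 without Control replicate 3, and 1 for APX3330 without any 1 Control library or APX3330 replicate 2 or 3. Of 13 HSP90 paralogs and co-chaperones 7 rose at D100 and none fell, led by Ahsa2 (1.71 ± 0.209), which stimulates the HSP90 ATPase, and including Ahsa1 (0.74 ± 0.123). Of the same 13 genes 4 rose and 1 fell at D27, 5 rose and 1 fell at D48, and 6 rose and none fell with APX3330 (2 rose without Control replicate 3 or APX3330 replicate 2, and 3 without APX3330 replicate 3). With the squamous libraries left out, the counts that rose in the D27, D48, D100 and APX3330 groups were 0, 0, 3 and 0 J protein genes, 0, 4, 3 and 1 HSP90 partners, and 0 exchange factors in each. Falls there were limited to 1 J protein gene at D27 and 1 at D48.

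The other compartments did not share one pattern. All 13 chaperone genes of the endoplasmic reticulum rose in each of the 4 groups against Control, with list medians of 0.93 (D27), 1.13 (D48), 1.27 (D100) and 0.99 (APX3330). They include Hspa5 (BiP), at 1.03 ± 0.221 at D27, where no member passed the test, and Hsp90b1 (GRP94), at 0.93 ± 0.118. In the same order 2, 7, 6 and 2 of the 13 rose without the libraries holding squamous transcripts, and 10 at D48 without replicates 2 and 3. Many markers of cells that secrete heavily were also higher than in Control. Of 8 goblet cell markers 8, 8, 6 and 6 rose in the D27, D48, D100 and APX3330 groups, and of 6 plasma and B cell markers 5, 6, 3 and 2 rose. Summed goblet cell markers stood at 51292 to 64229 CPM at D27 and at 26776 to 49910 CPM at D48. The summed plasma and B cell markers stood at 1319 to 1724 CPM in Control and at 2811 to 10735 CPM elsewhere, and the part of either cell type in the result was not tested. Of 8 genes of the cytosolic chaperonin TRiC, which folds actin and tubulin, 1 (Cct4, -0.33 ± 0.094 at D27) was called in these 4 comparisons, and its call was lost without any 1 of the Control libraries or of D27 replicates 1 and 2. Among 9 other mitochondrial chaperone and protease genes none rose. Clpx, for the unfoldase of a matrix protease, fell at D27 (-0.45 ± 0.115), with the count of 1 there going to 0 without Control replicate 2 or D27 replicate 1 and to 2 without D48 replicate 1 or 3 or APX3330 replicate 1. At D48 3 fell: Hspa9 (-0.36), for mitochondrial HSP70, Clpx (-0.65) and Afg3l2 (-0.31). Without the squamous libraries 0 fell at D27 and 1 at D48. Hspd1 and Hspe1 rose at D100, and none of these 9 was called there.

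Small heat shock protein genes other than Hspb1 were lower. Of the 4 tested (Hspb2 and Hspb3 had too few counts) 2 fell at D27 (none without Control or D27 replicate 1, 1 without Control replicate 3 or D27 replicate 2). All 4 fell in the D48, D100 and APX3330 groups (2 at D48 without Control replicate 1). At D100 Hspb7 fell by 1.32, Hspb6 by 1.14, Hspb8 by 1.05 and Cryab by 0.86 on the log2 scale. These proteins are abundant in muscle. The 9 skeletal muscle markers tested fell in each group (8 of the 9 at D100), and their sum was 25.1, 853 and 1904 CPM in the Control libraries and at most 36.3 CPM elsewhere. Of 8 smooth muscle markers 0, 6, 7 and 7 fell in the same comparisons, with summed levels of 7287 to 9803 CPM at D27, 4999 to 5963 at D48, 5100 to 6724 at D100 and 4337 to 5676 for APX3330. The part of either muscle in the lower values of the small heat shock protein genes, and in the values of Hspb1, was not tested. Of the 4, 1 fell at D100 and none with APX3330 without the libraries holding squamous transcripts.

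**Figure D4:**
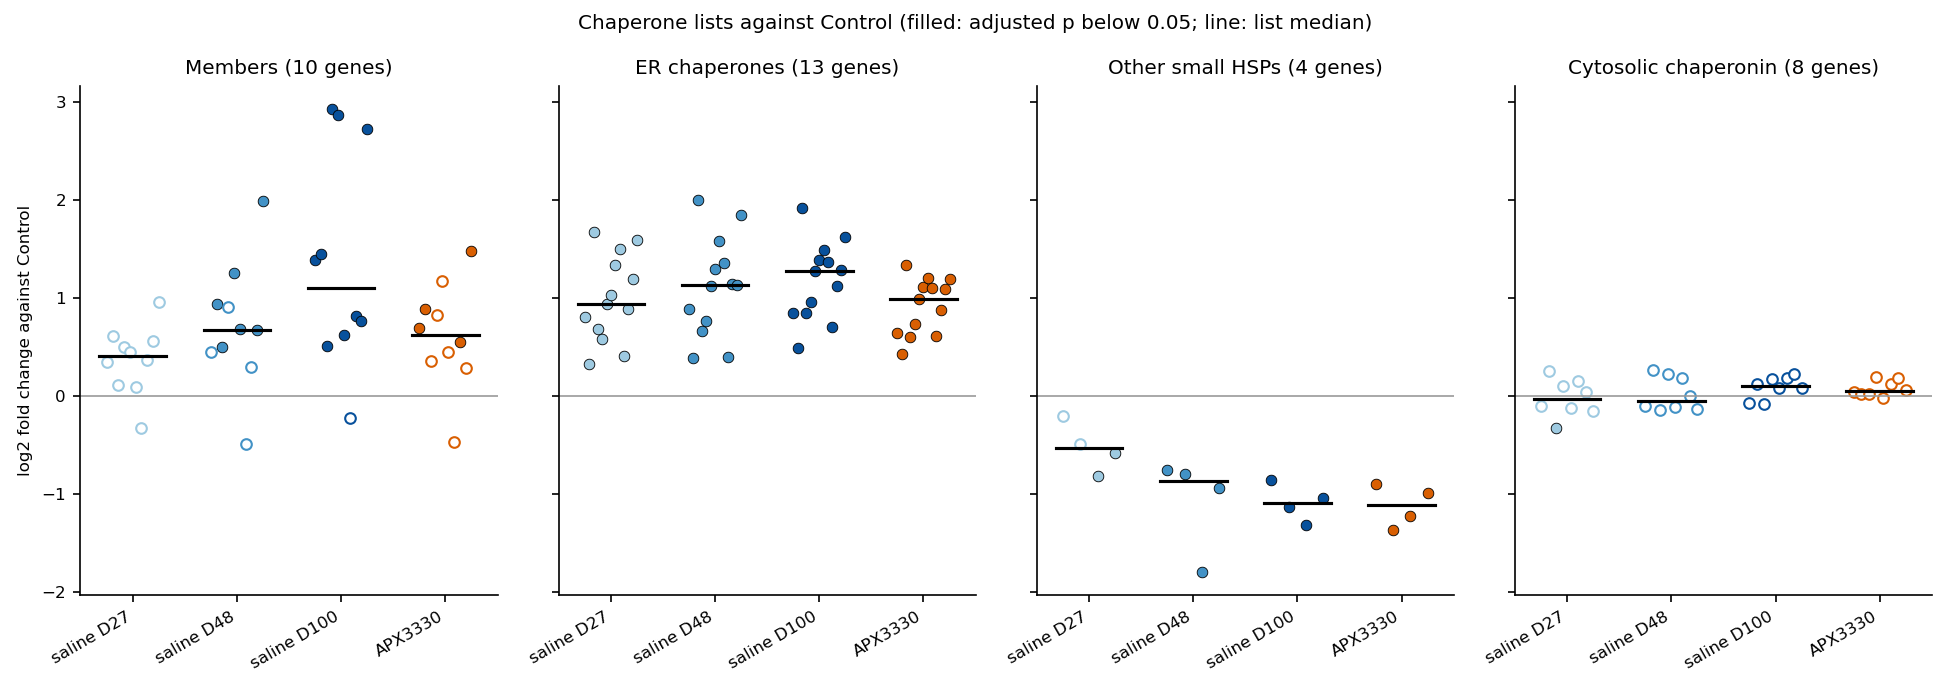
Log2 fold change against Control of each gene on 4 chaperone lists (members, ER, meaning endoplasmic reticulum, chaperones, other small heat shock proteins and the cytosolic chaperonin), with 1 point per gene, filled where the adjusted p is below 0.05, and a line at the list median. The member medians go from 0.41 at D27 to 0.68 at D48 and 1.10 at D100, with 0.62 for APX3330, while the ER medians lie between 0.93 and 1.27 and the small heat shock protein medians between -1.11 and -0.54.

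Across libraries the members varied together to different degrees. A score was formed as the mean of the standardised log2 levels of Hspa1a, Hspa1b, Hsph1, Dnajb1 and Hsp90aa1 in each of the 15 libraries. Of the members outside the score, Pearson's r with it was 0.835 for Hspd1, 0.810 for Hspa8, 0.781 for Hsp90ab1, 0.616 for Hspe1 and 0.045 for Hspb1. Over the 45 pairs of members r went from -0.18 to 0.977, with a median of 0.729. After removing the group means the median was 0.557 and the range 0.020 to 0.949. The points are libraries of 5 groups that differ in level, and both genes of a pair are read from the same libraries.

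Among 13132 other genes, the 10 whose log2 levels followed this score most closely were Ahsa2 (r = 0.954), Dnaja1 (0.937), Smcr8 (0.903), Cacybp (0.902), Trim65 (0.898), Bag3 (0.897), Chordc1 (0.895), Pgap1 (0.893), Cflar (0.893) and Hmbox1 (0.890), each over 15 libraries. Of these 10, 5 are on the chaperone and HSF1 target lists used above: Ahsa2, Dnaja1, Cacybp, Bag3 and Chordc1. The share of listed genes among the 13132 was not worked out. Dnaja1 stood at 90.9, 95.5 and 93.1 CPM in Control, at 276, 241 and 283 CPM at D100, and at 112, 229 and 169 CPM with APX3330. As for Hspa1a, Hspa1b, Hsph1, Dnajb1 and Hsp90aa1, its D100 libraries lay above all others and APX3330 replicate 1 was the lowest of its group. Dnaja1 was picked for following a score made of these 5 genes. The likeness therefore comes from the choice and is no separate result.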

How the data were processed

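The deposited table holds whole-number counts per gene, not normalised, for 15 libraries. Following the labels' protocols, 1.3 ug of RNA from a column kit was made into libraries with a SMARTER kit. Builds GRCm38 and mm10 are named per the submitters' processing notes. Aligner, counter and strand setting: not given in the sources used here. Columns were matched to samples by name. 1 edgeR 4.0.16 fit (R 4.3.3) held all 15 libraries (filterByExpr, TMM, quasi-likelihood test), and p-values were adjusted by Benjamini-Hochberg over 18038 genes with a threshold of 0.05. CPM values use TMM factors, and each SE is the log2 fold change divided by the root of F. The fit was tested on simulated data. The members and lists were chosen with earlier results of these data known, so no list was tested. Of each other list the text names up to 4 genes with the smallest F test p, and Hsf2, Hsf4 and Rbm3 to complete short lists. The genes most like the score were the 10 with the highest r among tested genes whose mean reached 2 CPM and whose symbol is no predicted or clone name. Alternatives were DESeq2 size factors, no low-count filter, the DESeq2 test (1.42.0), a replicate block, only the compared groups, the HSP70 copies summed, libraries with transcripts of other tissues left out, and each library left out in turn. List counts without those libraries were added after seeing the data. Transcripts were aligned with Biopython 1.88 and figures drawn with matplotlib 3.10.9 in Python 3.11.15. Pairs of libraries within groups differed by more than counting noise (chi-square over degrees of freedom of at least 9.16), so none was counted as a repeat.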

Additional observations from a re-analysis of the deposited data

How the results depend on the processing

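Of the 29 called pairs of member and comparison (of 100), 4 kept their direction and call in every alternative: Hspa1a, Hspa1b, Hsph1 and Dnajb1 at D100 against Control. Switching to DESeq2 size factors changed no call. Same-numbered libraries showed little shared deviation (r from -0.14 to 0.255 over 30 pairs, 2 above 0.1). With 3 libraries per group this cannot exclude a batch shared by libraries of the same number, and the main fit used no pairing. With the replicate block 3 members were higher at D27 against Control and 0 lower for APX3330 against D100. No other count moved by over 1.5 times. The cause of these and the following changes was not tested.

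Shares of all genes are not set beside each count in this and the next paragraph, so shifts in count are no result about the members alone. Over the 5 groups, 37.3% of genes tested were called in the main fit, 22.3% without the low-count filter and 43.8% by DESeq2. Without the low-count filter the counts higher were 4 at D27, 7 with APX3330 against Control, 2 against D27 and 3 for D48 against D27. The counts lower in that fit were 1 at D48 and 1 with APX3330 against Control, 2 for APX3330 against D48 and 6 against D100. The DESeq2 test gave 3 higher at D27, 1 lower at D48, 3 lower for APX3330 against D100, 2 higher for D48 and 8 for D100 against D27. Fits of only the compared groups gave 3 higher at D27 and 1 lower at D48. Summing the copies left 0 lower for APX3330 against D100. Without the libraries with pancreatic transcripts 1 member was higher at D27 and 2 at D48 against Control and 1 at D100 against D48. Without those with squamous transcripts 0 were higher at D48, 4 at D100 and 0 with APX3330 against Control, 2 at D100 against D27 and 0 lower for APX3330 against D100, and the F test called 4.

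Leaving out 1 library at a time gave these ranges of members called. Against Control, 0 to 3 were higher at D27, 4 to 7 higher and 0 to 1 lower at D48, 8 to 9 higher at D100, and 1 to 6 higher and 0 to 1 lower with APX3330. For APX3330, 0 to 3 were higher against D27, 0 to 1 higher and 0 to 1 lower against D48, and 0 to 1 lower against D100. Between saline groups 0 to 2 were higher for D48 and 0 to 6 for D100 against D27, and 2 to 6 for D100 against D48.

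Signs turned only where no call was made. Without the squamous libraries Hspa8 was at -0.031 at D27, Hspb1 at 0.20 at D100 and Hsp90ab1 at -0.020 for D100 against D48 (-0.0093 without the filter). Without the pancreatic libraries Hsp90aa1, Hsp90ab1 and Hspe1 were at 0.11, 0.032 and 0.11 for APX3330 against D48 and Hspe1 at -0.39 for D48 against D27. With single libraries left out, log2 fold changes ran from -0.060 to 0.22 for Hspa8 and -0.033 to 0.22 for Hsp90ab1 at D27 against Control. For APX3330 they ran from -0.20 to 0.65 for Hspa1a against D27, and against D48 from -0.61 to 0.41 for Hspa1a, -0.62 to 0.31 for Hspa1b, -0.23 to 0.20 for Hsp90aa1 and -0.205 to 0.16 for Hspb1, with Hspa8 from -0.33 to 0.025 against D100. For D48 against D27 they ran from -0.075 to 0.74 for Hspa1a, -0.19 to 0.053 for Hspd1 and -0.092 to 0.31 for Hspe1. For D100 they ran from -0.058 to 0.24 for Hspb1 against D27, and against D48 from -0.15 to 0.0084 for Hspa8, -0.071 to 0.066 for Hsp90ab1 and -0.10 to 0.29 for Hspe1. The lowest count of a member in any library was 91 (Hspa1a).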

Other observations

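Cirbp, a cold-inducible RNA-binding protein gene whose transcript is lowered by heat in cultured cells, was lower than in Control in every other group. It stood at 89.7, 64.1 and 90.0 CPM in Control and at 28.7 to 56.8 CPM in the 12 other libraries, so no library overlapped Control. The log2 fold changes were -0.83 ± 0.160 (D27), -1.04 ± 0.161 (D48), -1.32 ± 0.163 (D100) and -0.80 ± 0.160 (APX3330), with edgeR adjusted p from 6.15e-05 to 0.00366. Cirbp was called in all 15 fits that left out 1 library. Without the libraries holding squamous transcripts it was not called at D27 (-0.50, adjusted p = 0.154) or with APX3330 (-0.47, adjusted p = 0.221). Many circadian clock genes were lower too. Of 14, 9, 9, 8 and 7 were lower in the D27, D48, D100 and APX3330 groups (1 was higher at D27 and 1 at D48). Their summed level was 800 to 990 CPM in Control and 475 to 669 CPM elsewhere. The count was 5 at D100 without Control replicate 3 or D100 replicate 2 or 3, and 4 for APX3330 without Control replicate 1 or 3 or APX3330 replicate 3. Without the squamous libraries it was 4, 5, 4 and 1 in the same order, and at D48 it was 5 without the libraries holding pancreatic transcripts. The part of the clock genes in the values of Cirbp was not tested. Its relative Rbm3 was not called against Control, with values from -0.13 to 0.19. Against D48, Rbm3 was higher at D100 (0.32, edgeR adjusted p = 0.0497) and with APX3330 (0.30, adjusted p = 0.0456).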
